A study of Mus musculus with 30 samples.

Results

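The genes described here are 10 members of the myostatin, activin and TGF-beta axis: MSTN, GDF11, INHBB, TGFB1, ACVR2A, ACVR2B, FST, FSTL3, FSTL1 and SMAD7. They were found by gene symbol in the deposited table, and all 10 had a row among its 21073 genes. RNA-Seq was run on extensor digitorum longus (EDL) muscle, a fast-twitch muscle of the lower leg, from 30 female wild-type SJL/J mice in 6 groups of 5. Unimmunized mice (Ctrl) received no immunization, OVA-immunized mice received the foreign protein ovalbumin in complete Freund's adjuvant (CFA), and EAE-induced mice received the myelin peptide [Ser140]-PLP139-151 in the same adjuvant, which leads to relapsing-remitting experimental autoimmune encephalomyelitis. Muscles were taken 14 days (peak disease) or 40 days (chronic remission) after induction, from different mice on each day, and mouse age is not given in the sources used here. OVA-immunized mice share the adjuvant with EAE-induced mice, whereas unimmunized mice had neither adjuvant nor antigen, and the EAE-induced mice of day 14 were sampled at the height of a paralytic disease.

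MSTN (myostatin) is a secreted protein made mainly by muscle fibers that restrains muscle growth. MSTN, GDF11 and the activins bind the type II receptors ACVR2A and ACVR2B, which recruit a type I receptor, and the complex phosphorylates SMAD2 and SMAD3, whereas TGF-beta itself uses its own receptors but the same SMADs. FST and FSTL3 bind activins and MSTN outside the cell and keep them from their receptors, and SMAD7 inhibits the signal inside the cell.

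On day 14, MSTN, ACVR2A and FST were higher and FSTL1 was lower in EDL muscle of EAE-induced mice than in either control group, although the ACVR2A call against OVA-immunized mice was lost without any 1 of 3 mice. ACVR2B was lower than in unimmunized mice. TGFB1 and SMAD7 were not called different in either comparison, and GDF11, INHBB and FSTL3 were too low to be tested. On day 40, none of the 5 members tested was called different between groups, where at most 0.46% of all genes tested were called in any comparison.

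MSTN and ACVR2A are shown by the sequence in front of their start sites, because a ligand and its receptor were both higher on day 14 and their promoters differ in make-up. Use of the promoters was not measured. The sequences are from RefSeq on build GRCm38.p6 and give the 250 bases before the start, 5′ to 3′ on the plus strand. Capitals mark E-boxes (CANNTG, the sites of the myogenic and other basic helix-loop-helix factors) and the TATA box (TATAAA), each searched on both strands.
MSTN, chr1:53061390-53061639: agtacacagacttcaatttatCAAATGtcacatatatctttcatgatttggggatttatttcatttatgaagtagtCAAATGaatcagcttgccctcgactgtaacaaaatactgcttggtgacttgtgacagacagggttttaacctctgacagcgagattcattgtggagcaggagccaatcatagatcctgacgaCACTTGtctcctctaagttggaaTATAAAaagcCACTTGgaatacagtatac
ACVR2A, chr2:48813859-48814108: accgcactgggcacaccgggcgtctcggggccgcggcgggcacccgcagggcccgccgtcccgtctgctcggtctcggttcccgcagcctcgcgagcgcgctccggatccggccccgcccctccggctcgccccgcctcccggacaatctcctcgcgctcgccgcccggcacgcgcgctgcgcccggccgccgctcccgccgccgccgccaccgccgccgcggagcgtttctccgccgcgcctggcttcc
The MSTN sequence held 4 E-boxes, 229, 174, 52 and 19 bases before the start, and 1 TATA box at 29 bases. The ACVR2A sequence held neither. Of 32851 promoters of this length, 66.2% held an E-box, 3.84% held 4 or more and 12.4% held a TATA box. MSTN was 38.4% G and C, a share that 9.7% of promoters had or fell under, and ACVR2A was 82.0%, against a median of 52.4%. The SMAD element GTCTAGAC was in neither sequence and in 0.167% of promoters, and the shorter SMAD motif CAGAC occurred 2 times for MSTN and 1 time for ACVR2A and in 42.2% of promoters. Of the 8 members with a promoter in the table, 5 had no E-box, and FSTL3, with 3 E-boxes and a TATA box also at 29 bases, was closest to MSTN in these letters. These matches describe the sequences and do not show that a factor binds there.

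Levels are given as RPKM, read counts scaled to exon length and library size, so that genes can be compared per length. Libraries held an estimated 15900000 to 24700000 reads, with group medians of 19400000 to 22200000. All 10 fast-fiber markers exceeded 3 RPKM in every group, with a summed level on day 14 of 77750 to 119600 RPKM in unimmunized, 71010 to 107400 in OVA-immunized and 55190 to 73160 in EAE-induced mice. The fast myosin heavy chains were not lower in EAE-induced than in unimmunized mice by their means (MYH1 2060 against 1664, MYH2 486.8 against 349.1 and MYH4 5820 against 5706 RPKM), whereas PVALB (5369 against 14930) and TNNC2 (8600 against 16640) were. Over the 30 mice FSTL1 was the most abundant member (mean 46.4 RPKM), followed by TGFB1 (8.60), MSTN (6.53), ACVR2A (5.76) and FST (5.41). SMAD7 (2.84), ACVR2B (2.58) and GDF11 (2.14) lay under 3 RPKM, and INHBB (0.622) and FSTL3 (0.380) were lowest. This order differed by group. In EAE-induced mice of day 14, FSTL1 (mean 21.0) was followed by MSTN (11.1), FST (10.3), ACVR2A (8.81) and TGFB1 (8.78). From the depth estimate, MSTN rested on 75 to 775 reads per mouse, FSTL1 on 1607 to 7239, and FSTL3 on only 7 to 34. Nothing in the labels pairs the mice, and each is a separate animal.

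**Figure D1:**
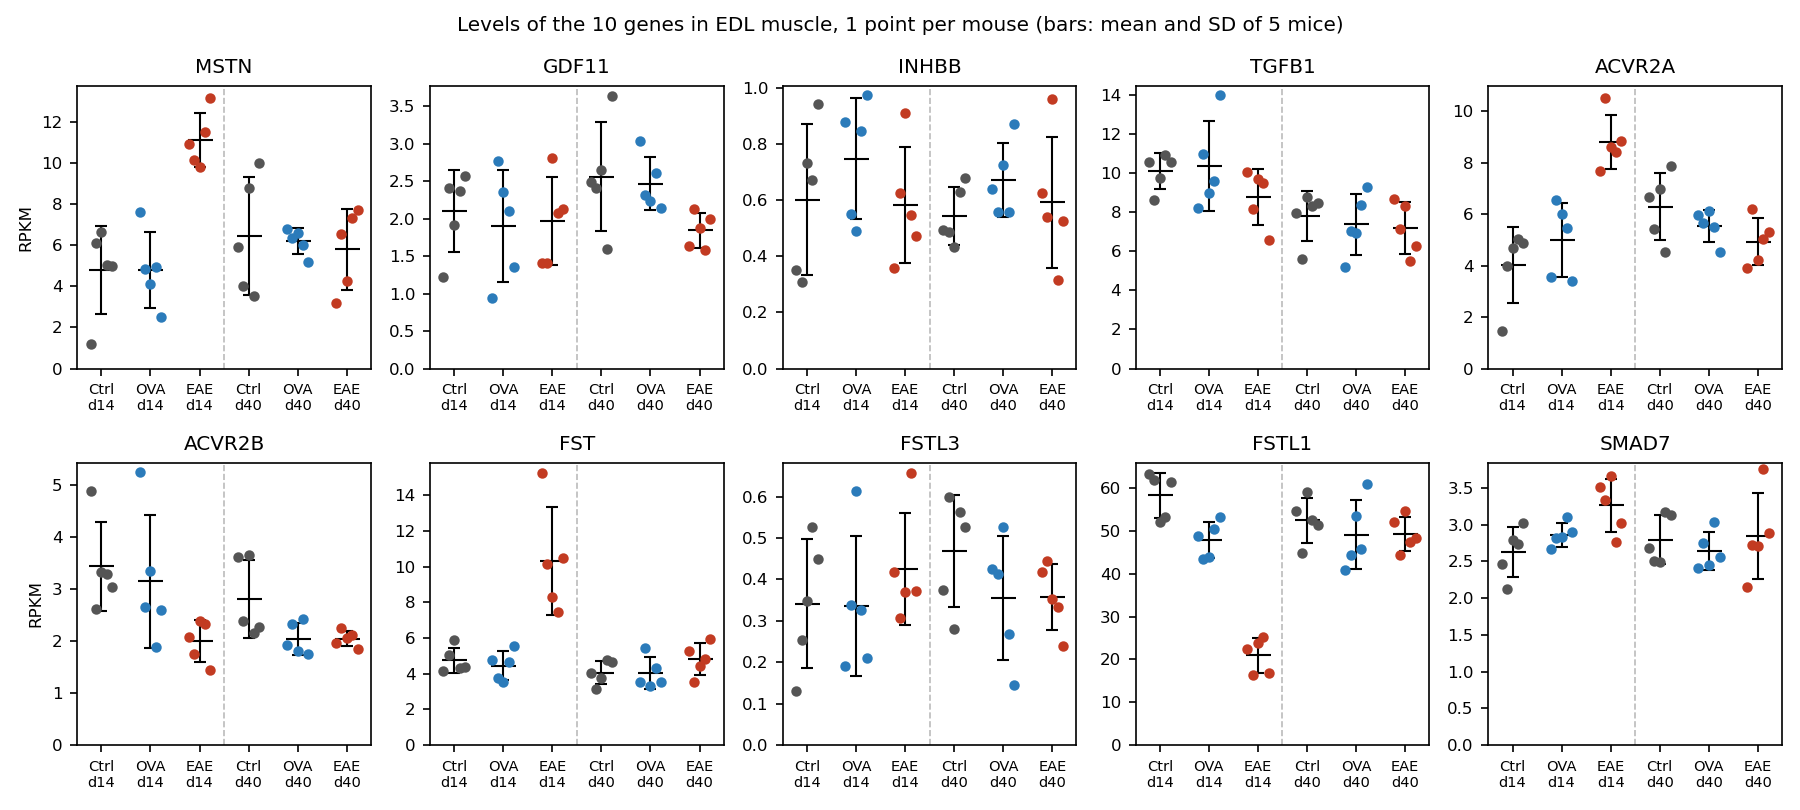
RPKM (linear axis from 0) of each of the 10 members in every mouse, by group and day, with the mean and SD of 5 mice as black bars. On day 14 the points of EAE-induced mice lie above both control groups for MSTN, ACVR2A and FST and below both for FSTL1, and on day 40 the points of the 3 groups overlap for these genes.

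The first comparison asked which members differ between EAE-induced and unimmunized mice at peak disease. Groups were compared with limma over all genes whose mean exceeded 3 RPKM in 1 or both groups, and a gene was called at a Benjamini-Hochberg adjusted p under 0.05 and a fold change over 1.5. Of the 10 members, 7 were tested, 3 were called higher and 2 lower. Of all 8771 genes tested, 26.4% were called, 14.6% higher and 11.8% lower. The groups did not overlap for these 5 members, as for 32.2% of the genes tested. The median log2 fold change was 0.30 over the 7 members and 0.11 over all genes tested. ACVR2B passed the filter only through unimmunized mice and SMAD7 only through EAE-induced mice, so a filter that ignores group was also used, a mean over 1 RPKM across all mice. It let in GDF11 as well and called the same number in each direction.

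Among the ligands, MSTN (Entrez 17700, chr1:53061640-53068079, plus strand, mm10) was measured on day 14 at 1.19, 6.10, 6.62, 5.02 and 5.01 RPKM in unimmunized mice 1 to 5. It was at 7.63, 4.84, 4.13, 4.92 and 2.51 RPKM in OVA-immunized mice and at 10.9, 10.2, 9.81, 11.5 and 13.2 RPKM in EAE-induced mice. The lowest EAE-induced mouse stood above the highest mouse of either control group, and the EAE-induced mice varied least (mean 11.1 ± 1.32 RPKM, against 4.79 ± 2.13 and 4.81 ± 1.85; SD, n = 5). The log2 fold change was 1.39 (SE 0.37, adjusted p = 0.00593, limma) against unimmunized mice, a 2.62-fold higher level. Unimmunized mouse 1 was far below its group, and without it the log2 fold change was 0.96 (adjusted p = 0.00323).

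GDF11, the closest relative of MSTN, was under the filter, and its means on day 14 were 2.10 ± 0.546, 1.91 ± 0.746 and 1.97 ± 0.585 RPKM in unimmunized, OVA-immunized and EAE-induced mice. Its ranges overlapped in all 3 groups, from 0.940 to 2.81 RPKM. The median ratio of MSTN to GDF11 within a mouse was 2.07 in unimmunized, 1.80 in OVA-immunized and 5.93 in EAE-induced mice. On the log2 scale it ranged from -0.04 to 1.73, 0.78 to 2.89 and 1.77 to 2.87, so OVA-immunized mice overlapped with EAE-induced mice. INHBB, which encodes the beta B subunit of activin B, lay between 0.307 and 0.972 RPKM in all 15 mice of day 14, with overlapping groups. TGFB1, the ligand with the broadest role in fibrosis and immune control, was at 10.6, 8.63, 9.75, 11.0 and 10.6 RPKM in unimmunized mice and 10.1, 8.15, 9.68, 9.47 and 6.56 in EAE-induced mice. These ranges overlapped, and the log2 difference of -0.21 (SE 0.15, adjusted p = 0.242, limma; 95% confidence interval -0.52 to 0.10) was not called.

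The type II receptors went in opposite directions. ACVR2A (Entrez 11480, chr2:48814109-48903269, plus strand) was at 1.46, 3.99, 4.67, 5.03 and 4.88 RPKM in unimmunized mice. It was at 3.54, 6.54, 6.01, 5.46 and 3.39 RPKM in OVA-immunized mice, and at 7.68, 10.5, 8.62, 8.41 and 8.83 in EAE-induced mice. All EAE-induced mice were above all other mice of that day, and unimmunized mouse 1 was again the lowest. The log2 fold change against unimmunized mice was 1.23 (SE 0.28, adjusted p = 0.00235, limma), and 0.91 without unimmunized mouse 1 (adjusted p = 0.00115).

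ACVR2B (Entrez 11481, chr9:119402118-119434995, plus strand) was at 4.89, 2.61, 3.33, 3.29 and 3.05 RPKM in unimmunized mice and at 2.07, 1.76, 2.39, 2.33 and 1.44 RPKM in EAE-induced mice. The highest EAE-induced mouse lay just under the lowest unimmunized mouse. OVA-immunized mice ranged from 1.89 to 5.24 RPKM and overlapped with both groups. The log2 fold change against unimmunized mice was -0.74 (SE 0.24, adjusted p = 0.0166, limma). With a pseudocount of 1 RPKM in place of 0.1 it was -0.56 (adjusted p = 0.0192), under the 1.5-fold limit. Without unimmunized mouse 1, the highest of its group, it was -0.61 (adjusted p = 0.0459). Within a mouse, the median ratio of ACVR2A to ACVR2B was 1.51 in unimmunized, 1.78 in OVA-immunized and 3.58 in EAE-induced mice on day 14. Its lowest log2 value in EAE-induced mice (1.81) was above the highest in unimmunized (0.66) and OVA-immunized mice (1.48). This ratio restates the levels of the 2 genes and is not a separate result. On day 40 its medians were 2.055, 2.501 and 2.33, and its log2 values reached 1.75 in unimmunized and 1.71 in OVA-immunized mice.

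**Figure D2:**
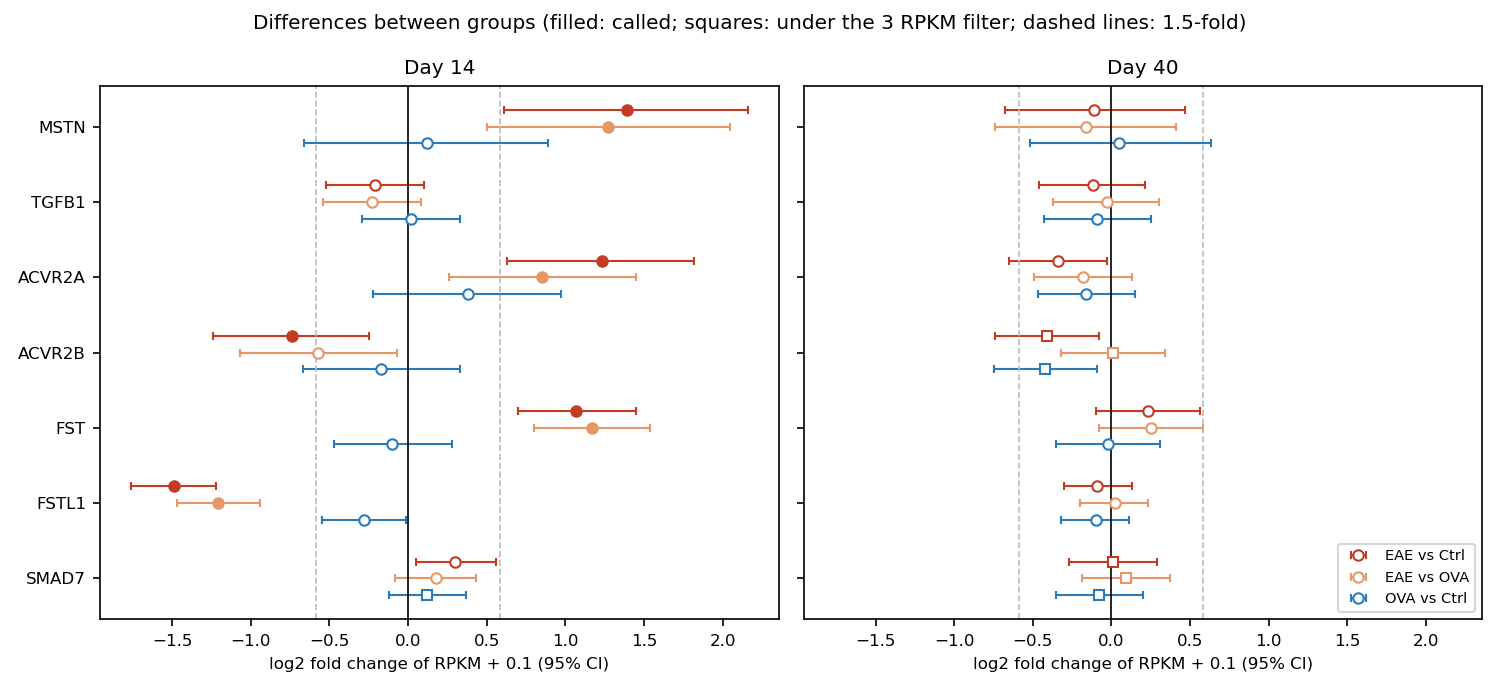
log2 fold change of RPKM + 0.1 with its 95% confidence interval (limma) for the 7 members tested on day 14, in the 3 comparisons of each day. Squares mark members under the 3 RPKM filter, which were not tested and could not be filled. They are ACVR2B and SMAD7 on day 40, and SMAD7 between the control groups of day 14. On day 14 filled points, which mark called genes, stand for MSTN, ACVR2A and FST to the right and FSTL1 to the left in both comparisons with EAE-induced mice and for ACVR2B in the comparison with unimmunized mice, and on day 40 no point is filled.

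Of the extracellular binding proteins, FST (follistatin; Entrez 14313, chr13:114452290-114458951, minus strand) was at 4.14, 5.03, 5.88, 4.30 and 4.39 RPKM in unimmunized mice. OVA-immunized mice were at 4.78, 3.77, 3.52, 4.67 and 5.55 RPKM, and EAE-induced mice at 15.2, 10.1, 8.33, 7.45 and 10.5 RPKM. The control groups were alike and every EAE-induced mouse was higher than every control mouse. The log2 fold change was 1.07 (SE 0.18, adjusted p = 0.000203, limma), or 2.10-fold. The median ratio of FST to its ligand MSTN within a mouse was 0.878 in unimmunized, 0.855 in OVA-immunized and 0.850 in EAE-induced mice. The mean log2 ratios were 0.17 ± 0.86, -0.04 ± 0.68 and -0.14 ± 0.41, and whether the rise of FST differed from that of MSTN was not tested. FSTL3, a relative of FST with the same ligands, lay between 0.131 and 0.656 RPKM on day 14 with overlapping groups.

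FSTL1 (Entrez 14314, chr16:37776873-37836514, plus strand) is a secreted glycoprotein that carries a follistatin-like domain and is made largely by connective tissue cells. It was at 63.4, 61.9, 52.1, 53.3 and 61.4 RPKM in unimmunized mice. It was at 48.9, 43.5, 43.9, 50.5 and 53.2 RPKM in OVA-immunized mice, and at 22.5, 16.5, 23.9, 25.3 and 16.9 in EAE-induced mice. The highest EAE-induced mouse was well under the lowest of the 10 control mice. The log2 fold change against unimmunized mice was -1.49 (SE 0.13, adjusted p = 1.16e-06, limma), a 2.80-fold lower level and the largest of the 7 members tested with all mice. That of MSTN was larger without unimmunized mouse 2 (1.52 against -1.47) or 3 (1.55 against -1.53), or without EAE-induced mouse 2 (1.42 against -1.41).

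The summed level of 10 markers of fibroblasts and fibro-adipogenic progenitors moved with FSTL1 on day 14. It was 1803 to 2664 RPKM in unimmunized, 1106 to 1618 in OVA-immunized and 622.9 to 905.7 in EAE-induced mice, and the group means of all 10 markers were lowest in EAE-induced mice. The defining surface marker PDGFRA moved least, with means of 7.64, 7.96 and 6.74 RPKM, whereas COL1A1 had means of 431.5, 186.2 and 30.3 RPKM. On day 40 the sums were 1286 to 1476 RPKM in unimmunized, 1249 to 1635 in OVA-immunized and 1190 to 1534 in EAE-induced mice. The sums of unimmunized mice on day 40 thus lay under their range of day 14. Mean FSTL1 in unimmunized mice was 58.4 RPKM on day 14 and 52.5 on day 40. In bulk muscle, fewer cells of a type and less RNA per cell cannot be told apart, and the part of connective tissue cells in the FSTL1 result was not tested. Tendon markers (498.2 to 716.3, 506.3 to 634.3 and 279.5 to 434.8 RPKM, summed over 6 genes) and macrophage markers (332.7 to 493.4, 311.1 to 484.0 and 154.2 to 348.5, over 10 genes), which bear on FSTL1 and TGFB1, were also lowest in EAE-induced mice by their summed level. The median sums in EAE-induced mice relative to unimmunized and OVA-immunized mice were likewise 0.278 and 0.0944 for erythrocyte, 0.535 and 0.525 for lymphocyte, 0.661 and 0.673 for slow-fiber, 0.71 and 0.70 for endothelial and 0.731 and 0.979 for Schwann cell markers. Relative to unimmunized mice, single genes went against their list, with the mean of MS4A1 (lymphocytes) at 0.155, 0.187 and 0.291 RPKM and that of TEK (endothelium) at 7.79, 8.75 and 8.07. The tendon transcription factor SCX went against the rest of its list, with means of 14.9, 13.3 and 76.0 RPKM. Neutrophil markers were higher in both immunized groups (4.09 to 10.8, 67.0 to 232.4 and 216.9 to 402.1 RPKM, over 8 genes). The mean of S100A8 was 224.7 RPKM in EAE-induced and 46.5 in OVA-immunized mice, whereas 6 of the 8, S100A9 and LY6G among them, had lower means in EAE-induced than in OVA-immunized mice. The 4 satellite cell markers were 6.16 to 9.12, 6.27 to 7.80 and 6.43 to 7.69 RPKM in sum, with CALCR under 0.1 RPKM, and the groups overlapped. CHODL made up most of this sum (means of 6.35, 5.56 and 5.10 RPKM), whereas the means of MYF5 (0.740, 0.854 and 1.35) and PAX7 (0.324, 0.253 and 0.422) were highest in EAE-induced mice.

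SMAD7 (Entrez 17131), an inhibitory SMAD whose transcription is itself raised by TGF-beta family signals, was at 2.47, 2.13, 2.80, 2.74 and 3.03 RPKM in unimmunized mice. It was at 3.52, 3.34, 3.67, 2.77 and 3.03 RPKM in EAE-induced mice, and the groups overlapped. The log2 difference of 0.30 (SE 0.12) had an adjusted p of 0.0497 (limma) but a fold of 1.23, so it was not called, and the adjusted p ranged from 0.0312 to 0.132 over the other settings and with single mice left out.

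The comparison with OVA-immunized mice asked what sets EAE-induced mice apart from mice that received the same adjuvant with an antigen unrelated to myelin. It shares the 5 EAE-induced mice with the comparison above, so the results are not independent. Of 7 members tested, 3 were called higher and 1 lower, against 20.3% of the 8674 genes tested, 11% higher and 9.28% lower. The groups did not overlap for the 4 called members and for 26.2% of all genes tested, and the median log2 fold change was 0.18 over the members and 0.11 over all genes. MSTN was higher by 1.27 on the log2 scale (SE 0.37, adjusted p = 0.0125, limma) and FST by 1.17 (SE 0.18, adjusted p = 0.000112). FSTL1 was lower, at -1.21 (SE 0.13, adjusted p = 6.21e-06).

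ACVR2A was higher than in OVA-immunized mice by 0.85 (SE 0.28, adjusted p = 0.0251, limma), but this call rested on single mice. It was lost without EAE-induced mouse 2 (0.79, adjusted p = 0.063), OVA-immunized mouse 1 (0.74, adjusted p = 0.0592) or OVA-immunized mouse 5 (0.73, adjusted p = 0.068). ACVR2B was not called (-0.57, SE 0.24, adjusted p = 0.0643, limma), but was called without OVA-immunized mouse 4 (-0.73, adjusted p = 0.0234) and with median-of-ratios scaling (-0.66, adjusted p = 0.0473). TGFB1 (-0.23, 95% confidence interval -0.54 to 0.08) and SMAD7 (0.18, interval -0.08 to 0.43) were not called.

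OVA-immunized and unimmunized mice were compared to see what the adjuvant and a foreign antigen alone do on day 14. None of the 6 members tested was called, where limma called 0.142% of 8471 genes and 821 genes had an unadjusted p under 0.05. The groups did not overlap for 2.69% of the genes and for none of the members. FSTL1 had the largest difference relative to its error, -0.28 (SE 0.13, adjusted p = 0.48, limma; interval -0.55 to -0.01), with OVA-immunized mice at 43.5 to 53.2 RPKM and unimmunized mice at 52.1 to 63.4. The interval for MSTN, -0.66 to 0.89, still allowed differences as large as 1.5-fold in either direction, and that for FST, -0.47 to 0.28, did not.

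The 5 mice with the lowest long genes bear on ACVR2A and MSTN most, and also on ACVR2B and GDF11. In each library the median log2 level of 3422 genes over 5000 bases was set against that of 610 genes under 1500 bases. Each gene was first taken relative to its median over the 15 mice of the same day, so the 2 days do not share a reference. This difference was -0.83 in unimmunized mouse 1, -0.68 and -0.46 in OVA-immunized mice 1 and 5 of day 14, and -0.40 in EAE-induced mice 1 and 3 of day 40. It was -0.32, 0.50, 0.25, 0.27 and 0.12 in EAE-induced mice 1 to 5 of day 14. ACVR2A has 5686 bases of exon, and in each of these 3 groups the mice with low long genes held the lowest ACVR2A levels. MSTN has 2705 bases, and 4 of the 5 mice likewise held the lowest MSTN levels of their groups, whereas OVA-immunized mouse 1 had the highest. Among the day 14 mice of the 5, GDF11 was also lowest in its group, at 1.22 RPKM in unimmunized mouse 1 and 0.940 and 1.35 in OVA-immunized mice 1 and 5. ACVR2B was instead highest in its group in mouse 1 of both control groups, at 4.89 and 5.24 RPKM.

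With a trend on gene length removed from every library, the log2 fold changes of ACVR2A were 1.16 and 0.80 and those of MSTN 1.49 and 1.34 against unimmunized and OVA-immunized mice, and all 4 were called. Without the 5 mice, ACVR2A was at 0.91 (adjusted p = 3.61e-05, limma) and 0.54 (adjusted p = 0.00263), the second under the 1.5-fold limit. MSTN was then at 0.96 and 1.24. What set long against short genes in these libraries was not tested.

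**Figure D3:**
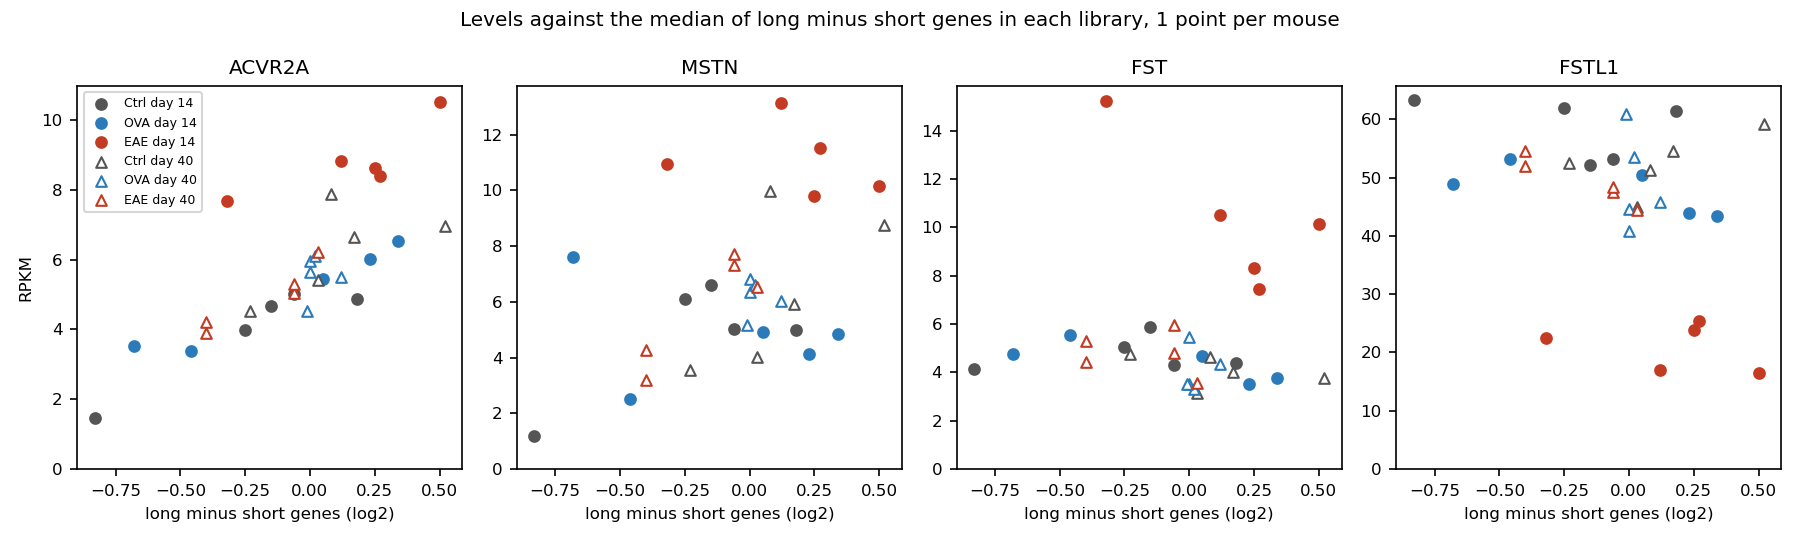
RPKM of ACVR2A, MSTN, FST and FSTL1 in each mouse (vertical axis, linear from 0) against the median log2 level of long minus short genes in its library (horizontal axis), circles for day 14 and triangles for day 40. The horizontal values are relative to the mice of the same day, so circles and triangles do not share a reference on that axis. ACVR2A is lowest where long genes are lowest. The EAE-induced mice of day 14 lie above all other mice for FST and below them for FSTL1. They cover only -0.32 to 0.50 of the horizontal axis, so none lies beside the 5 mice with the lowest long genes.

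On day 40 the question was whether the differences persist into chronic remission. Only 5 members exceeded 3 RPKM, and none was called in any of the 3 comparisons. Limma called 0.46% of 8691 genes between EAE-induced and unimmunized mice, 0.209% of 8598 against OVA-immunized mice, and 0% of 8706 between the control groups, with 2423, 1500 and 272 genes at an unadjusted p under 0.05. Groups did not overlap for 5.22%, 5.87% and 0.678% of those genes and for none of the 5 members. MSTN was at 5.93, 4.01, 8.77, 3.55 and 9.99 RPKM in unimmunized, 6.81, 6.35, 6.62, 6.03 and 5.17 in OVA-immunized and 3.19, 6.54, 4.27, 7.32 and 7.71 in EAE-induced mice. The 3 ranges overlapped, and the log2 difference between EAE-induced and unimmunized mice was -0.11 (SE 0.27, adjusted p = 0.806, limma; interval -0.68 to 0.47).

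FST was at 4.02, 3.15, 3.78, 4.75 and 4.63 RPKM in unimmunized and 5.28, 3.54, 4.45, 4.82 and 5.94 in EAE-induced mice of day 40, a log2 difference of 0.23 (SE 0.16, adjusted p = 0.333, limma; interval -0.10 to 0.56). FSTL1 was at 54.6, 44.9, 59.1, 52.5 and 51.4 RPKM in unimmunized and 52.0, 44.4, 54.6, 47.6 and 48.4 in EAE-induced mice. Its difference of -0.09 had the narrowest interval of the members, -0.30 to 0.13. ACVR2A was at 6.66, 5.42, 6.97, 4.54 and 7.87 RPKM in unimmunized and 3.90, 6.21, 4.21, 5.05 and 5.29 in EAE-induced mice, with overlapping ranges and a difference of -0.34 (SE 0.15, adjusted p = 0.15, limma; interval -0.65 to -0.03). Its adjusted p ranged from 0.0335 to 0.319 with single mice left out, was 0.617 without the 2 EAE-induced mice with low long genes, and the gene was not called in any of these. TGFB1 differed by -0.12 (SE 0.16, adjusted p = 0.617).

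The members under 3 RPKM on day 40 were not tested at the filter. ACVR2B had means of 2.81 ± 0.750, 2.04 ± 0.309 and 2.05 ± 0.153 RPKM in unimmunized, OVA-immunized and EAE-induced mice. With no filter on low values, its log2 differences from unimmunized mice were -0.42 in OVA-immunized (adjusted p = 1, limma) and -0.41 in EAE-induced mice (adjusted p = 0.166). SMAD7 had means of 2.80 ± 0.332, 2.64 ± 0.256 and 2.85 ± 0.582. GDF11 was at 1.63, 2.13, 1.87, 1.58 and 2.00 RPKM in EAE-induced mice and 3.03, 2.31, 2.24, 2.62 and 2.15 in OVA-immunized mice, and these groups did not overlap. With no filter its log2 difference in EAE-induced mice was -0.40 from OVA-immunized (adjusted p = 0.312, limma) and -0.42 from unimmunized mice (adjusted p = 0.19), and unimmunized mice, at 1.60 to 3.64 RPKM, overlapped with both. INHBB (0.317 to 0.958 RPKM) and FSTL3 (0.144 to 0.598) had overlapping groups.

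Whether the differences changed with time was tested by an interaction term fitted to the 30 mice together, that is, the difference from the control group on day 40 minus that on day 14. Against unimmunized mice, 3 of the 7 members tested were called lower and 1 higher, where 32.7% of 9013 genes were called, 11.7% higher and 20.9% lower. The change was -1.50 for MSTN (SE 0.48, adjusted p = 0.0125, limma) and -1.57 for ACVR2A (SE 0.33, adjusted p = 0.000489). It was -0.84 for FST (SE 0.24, adjusted p = 0.00599) and 1.40 for FSTL1 (SE 0.16, adjusted p = 3.55e-07). The MSTN call was lost without the 5 mice with low long genes (-0.69, adjusted p = 0.0715) and the FST call with quantile normalization (-0.56, adjusted p = 0.0759). Among all genes tested the median change was -0.15, which was -0.01 after median-of-ratios scaling.

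Against OVA-immunized mice the same 4 members were called, where 21.8% of 8935 genes were, 8.16% higher and 13.7% lower. The changes were -1.43 for MSTN (SE 0.48, adjusted p = 0.0235, limma), -1.03 for ACVR2A (SE 0.33, adjusted p = 0.0179), -0.92 for FST (SE 0.24, adjusted p = 0.00458) and 1.22 for FSTL1 (SE 0.16, adjusted p = 2.31e-06). The ACVR2A call was lost without the 5 mice with low long genes (-0.55, adjusted p = 0.0405), under the 1.5-fold limit. The MSTN call was lost without OVA-immunized mouse 5 of day 14 (-1.23, adjusted p = 0.0537) or EAE-induced mouse 1 of day 40 (-1.24, adjusted p = 0.0527). ACVR2B was called only without OVA-immunized mouse 4 of day 14 (0.74, adjusted p = 0.0395; 0.58 with all mice, adjusted p = 0.113). TGFB1 and SMAD7 were not called in either test.

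The members were set among 47 other genes of the pathway, grouped by role. In the comparison of EAE-induced with unimmunized mice on day 14, 36 of them were tested, 8 were called higher and 7 lower, with a median log2 fold change of 0.20, where 14.6% of all genes tested were called higher and 11.8% lower. Against OVA-immunized mice 35 were tested, 6 were called higher and 5 lower, with a median of 0.14, where the shares were 11% and 9.28%. Limma called none between the control groups on day 14 and none in any comparison of day 40. For the change between the days 36 were tested, with 5 called higher and 12 lower against unimmunized mice (11.7% and 20.9% of all genes) and 5 higher and 7 lower against OVA-immunized mice (8.16% and 13.7%). The 12 were 7 to 8 under other scalings, the length correction or without the 5 mice with low long genes.

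Of the 4 other ligands 3 were tested against unimmunized mice. TGFB3 was higher by 0.86 (SE 0.14, adjusted p = 0.000199), at 22.6 ± 4.65 against 12.4 ± 1.95 RPKM. INHA, the inhibin alpha subunit, was lower at -1.02 (SE 0.14, adjusted p = 5.71e-05), at 3.26 ± 0.636 against 6.67 ± 0.994 RPKM. Of 8 receptors and co-receptors 5 were tested and 1 was called. This was TGFBR1, a type I receptor used by TGF-beta and also by MSTN, at 11.8 ± 3.41 against 4.61 ± 1.16 RPKM, a log2 fold change of 1.33 (SE 0.21, adjusted p = 0.00014).

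Of 17 genes of latency, activation and extracellular inhibition 12 were tested, 1 was called higher and 4 lower. LTBP3, which tethers latent TGF-beta to the matrix, was higher by 0.60 (adjusted p = 0.000503), just past the 1.5-fold limit. Its relative LTBP4 was lower at -1.31 (adjusted p = 3.92e-05), with 23.4 ± 6.24 against 56.8 ± 5.61 RPKM. BMP1, a protease that cleaves procollagens and can free MSTN from its latent complex, was lower at -1.54 (adjusted p = 5.28e-06), with 4.02 ± 1.07 against 11.7 ± 1.75 RPKM. NRROS, which holds latent TGF-beta on myeloid cells, was lower at -0.97 (adjusted p = 0.000969). It passed the filter only through unimmunized mice, and was also called with the filter that ignores group (adjusted p = 0.00087, limma).

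Of 11 intracellular genes 10 were tested, and 3 were called higher and none lower. They were SMAD3, which carries the signal to the nucleus (0.68, adjusted p = 0.00507), and the transcriptional repressors of that signal SKIL (0.96, adjusted p = 0.00269) and TGIF1 (1.70, adjusted p = 0.000253). SKIL and TGIF1 passed the filter only through EAE-induced mice, and with the filter that ignores group they were also called (adjusted p = 0.00282 and 0.000259, limma). Of 7 target genes 6 were tested. CDKN1A, a cell cycle inhibitor that also responds to p53 and glucocorticoids, was higher by 2.94 (SE 0.30, adjusted p = 4.38e-06), at 198 ± 80.2 against 24.4 ± 6.04 RPKM. KLF10 was higher by 1.02 (adjusted p = 0.0121), and the matrix proteins POSTN (-1.27, adjusted p = 0.000174) and TGFBI (-0.76, adjusted p = 0.000852) were lower. The targets as a group had 2 calls in each direction, and CCN2 (-0.03, adjusted p = 0.95) was not called. These 15 genes were chosen by their call against unimmunized mice. The comparison with OVA-immunized mice uses the same EAE-induced mice, so it is not independent of that choice. In it, 11 of the 15 were called in the same direction. Of all genes tested 20.3% were called, a share that is not limited to genes already called against unimmunized mice and so is no like measure for the 15. KLF10 (0.39, adjusted p = 0.326, limma), SKIL (0.36, adjusted p = 0.212), TGFBI (-0.54, adjusted p = 0.0107) and the matrix proteoglycan DCN (-0.55, adjusted p = 0.0029, against -0.70 from unimmunized mice) were not, the last pair for their fold change.

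**Figure D4:**
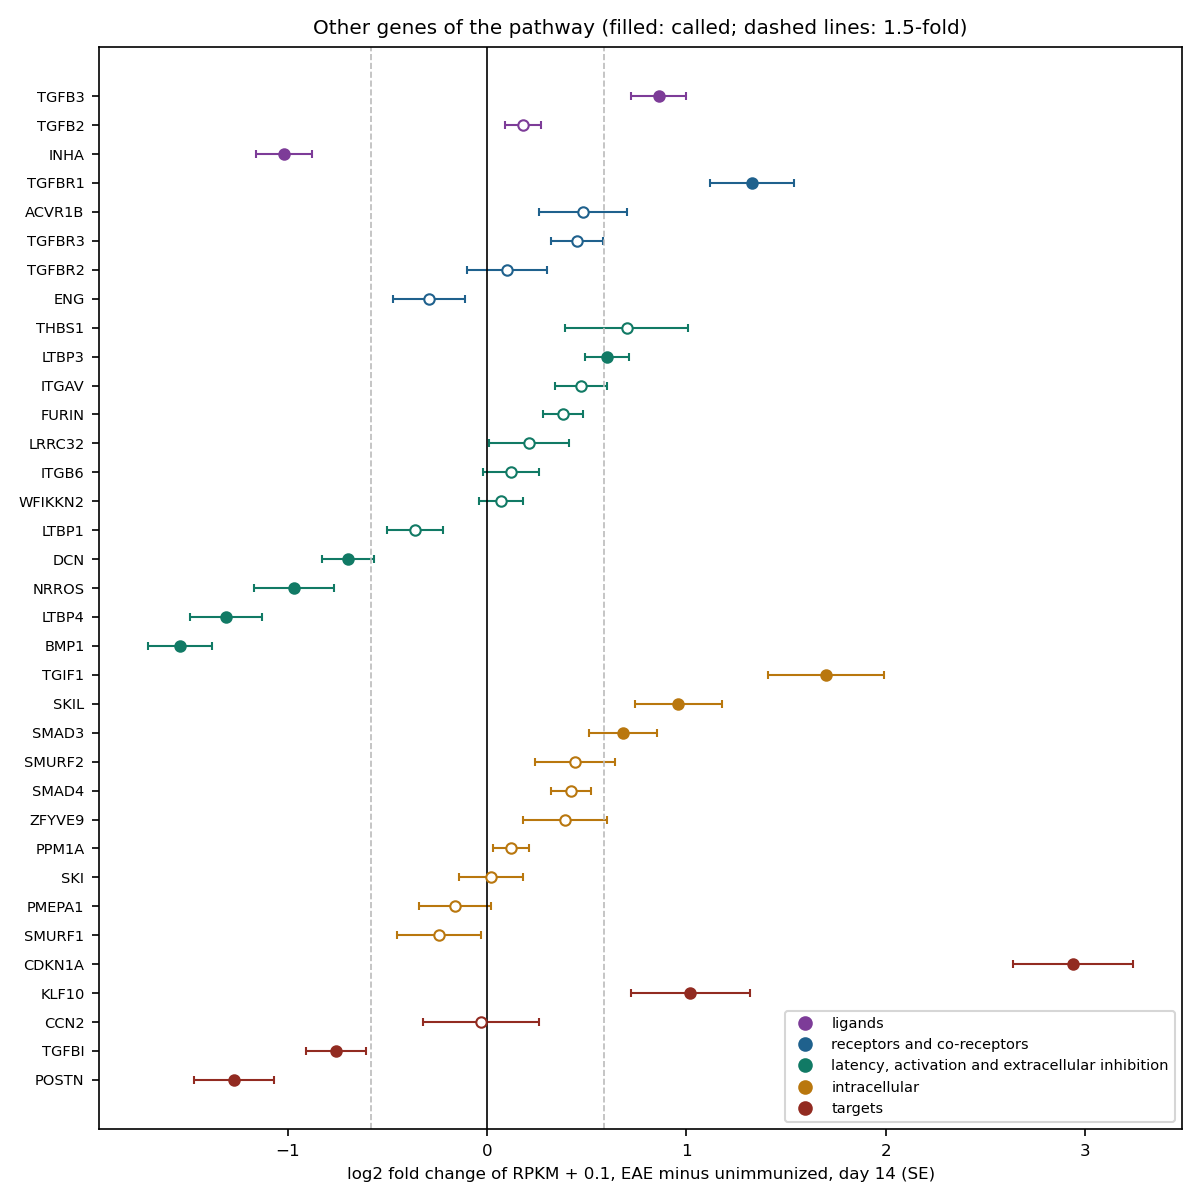
log2 fold change of RPKM + 0.1 between EAE-induced and unimmunized mice on day 14, with its standard error (limma, n = 5 mice per group), for 35 of the 36 other pathway genes tested, colored by role, with filled points for called genes. Calls fall on both sides in every role except the receptors, with 1 called higher, and the intracellular genes, with 3 called higher.

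The genes whose levels ran most like each member over the 30 mice were listed as a description, by Pearson correlation of log2 levels among 8444 genes with a mean over 3 RPKM. The points share the groups and the libraries. MSTN was closest to NUDCD1 (r = 0.88), COPS2 (0.87) and SLC16A10 (0.87), and FST to EMD (0.94), PSMD8 (0.93) and YBX3 (0.92). FSTL1 was closest to THY1 (0.97), LOXL2 (0.97) and THBS3 (0.95), genes of mesenchymal cells and matrix. ACVR2A was closest to IPO7, TBC1D15 and TTLL7 (0.97 each), and these correlations were 0.95, 0.96 and 0.94 with the group means removed. TGFB1 had weaker partners, CRELD2 (0.75), SEC61A1 (0.73) and HIC1 (0.72). With group means removed, the partners of FSTL1 were at 0.79, 0.70 and 0.69 and those of FST at 0.75, 0.68 and 0.73. The partners of MSTN were then at 0.80, 0.83 and 0.78 and those of TGFB1 at 0.54, 0.59 and 0.60.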

How the data were processed

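EDL muscle RNA of 30 mice was sequenced as poly(A), directional, paired-end libraries. The authors aligned reads to mm10 with Subread, used featureCounts with RefSeq transcripts for counting, and scaled the counts to RPKM. The deposited values are described as RPKM but behave as log2(RPKM + 1): read back this way, 69.6% of values of 1346 short genes fell within 0.1 of a whole read, against 51.6% read as plain RPKM and 61.7% as a natural log. The log base thus rests on this check and is not stated in the sources used here. They were converted to RPKM, with 0.0001 (25.8% of values) as 0. No count table was used, so the edgeR test of the study was not run. Groups were compared with limma 3.58.1 (R 4.3.3; trend in eBayes) on log2(RPKM + 0.1), the 15 mice of a day in 1 model, with Benjamini-Hochberg adjustment over all genes tested; the fold change is on that scale and understates low genes. The p-values measure the spread between mice. On simulated data for EAE against unimmunized mice on day 14 (8348 genes), 197 of 200 changed genes were recovered, with 8 false calls. Recovery at the fold change of each member was not tested. Recovery with 26.4% of genes changed, the share called in the mice, was not tested either. Depth was estimated from the steps between low values. Coordinates of the members are from GENCODE M21 (GRCm38). Members, gene lists and tests were chosen with earlier results of these data known. All 10 members are named. Of the other pathway genes, those called between EAE-induced and unimmunized mice on day 14 with the largest log2 fold change are named, at most 3 per role and direction, and CCN2 and DCN were named after their values were seen. Of the pathway genes, 1 that is included in the counts is not reported here. The 3 genes most like each member with a mean over 3 RPKM are named. Alternatives were other pseudocounts (1 and 0.01), filters and scalings, fits of the compared groups only or of all mice, the replicate number as a block, and leaving out each mouse. A length correction and leaving out the 5 mice with the lowest long genes (under -0.35) were chosen after seeing the data. The 27 symbols that a spreadsheet turned to dates were replaced by the reference symbol of their Entrez number where there was one.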

Additional observations from a re-analysis of the deposited data

Results flagged for a closer look

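Of 60 groups of 5 mice (10 members in 6 groups), 3 held a mouse far from the other 4 on the log2 scale, judged by the gap to its neighbor as a share of the group's range, with a limit of 0.71. Chance alone flags about 1 in 20 such groups. MSTN in unimmunized mouse 1 of day 14 (1.19 RPKM) had a gap of 0.834 of the range, and ACVR2A in the same mouse (1.46 RPKM) had 0.810. Both are the lowest values of their gene over all 30 mice, and the same library had the lowest long genes (-0.83). TGFB1 in unimmunized mouse 2 of day 40 (5.58 RPKM) had a gap of 0.779.

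The difference between EAE-induced and control mice changed from day 14 to day 40, by the interaction test in limma, for 4 members. The same test called 32.7% of all 9013 genes tested against unimmunized mice and 21.8% of 8935 against OVA-immunized mice. Against unimmunized mice the change was -1.50 for MSTN, -0.84 for FST, 1.40 for FSTL1 and -1.57 for ACVR2A. The MSTN call was lost without the 5 mice with low long genes (-0.69) and the FST call with quantile normalization (-0.56). Against OVA-immunized mice the change was -1.43 for MSTN, -0.92 for FST, 1.22 for FSTL1 and -1.03 for ACVR2A. There the MSTN call was lost without OVA-immunized mouse 5 of day 14 (-1.23) or EAE-induced mouse 1 of day 40 (-1.24), and the ACVR2A call without the 5 mice (-0.55).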

How the results depend on the processing

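Between EAE-induced and unimmunized mice on day 14, the 3 higher and 2 lower members were called with each mouse left out in turn and under every other setting run but 2: a pseudocount of 1 RPKM left 1 lower (ACVR2B at -0.56), and dropping the fold change limit added SMAD7 to the higher members (0.30) and gave 12 other pathway genes higher instead of 8. Between EAE-induced and OVA-immunized mice, 2 members were lower with median-of-ratios scaling and 2 higher without the 5 mice with the lowest long genes, and leaving out single mice gave 2 to 3 higher and 1 to 2 lower. On day 14, 1 other pathway gene was lower in OVA-immunized than in unimmunized mice with all 30 mice in 1 model. On day 40, 1 was lower between EAE-induced and unimmunized mice with no filter and 1 between EAE-induced and OVA-immunized mice with no fold change limit, and leaving out single mice gave 0 to 1 in both. For the change between days against unimmunized mice, 2 members were lower with quantile normalization (FST at -0.56, adjusted p = 0.0759, limma) and without the 5 mice (MSTN at -0.69, adjusted p = 0.0715), and the other pathway genes called lower were 8, 7, 8 and 8 with median-of-ratios scaling, quantile normalization, length correction and without the 5 mice, against 12. Against OVA-immunized mice, without the 5 mice 2 members were lower (ACVR2A at -0.55) and 3 other pathway genes higher, and leaving out single mice gave 2 to 3 members lower and 1 to 2 higher. The causes were not tested.

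Signs changed only for differences that were not called. Without the 5 mice, MSTN was at -0.28 and TGFB1 at -0.02 between the control groups of day 14. On day 40 without them, MSTN was at 0.27 and 0.21 in EAE-induced against unimmunized and OVA-immunized mice, and FSTL1 at -0.06 against OVA-immunized mice. The change of TGFB1 was then -0.10 and -0.03, and that of SMAD7 against OVA-immunized mice was 0.07. With quantile normalization, day 40 gave FSTL1 at -0.02 and TGFB1 at 0.05 in EAE-induced against OVA-immunized mice and FST at 0.01 in OVA-immunized against unimmunized mice, and the change of SMAD7 against OVA-immunized mice was 0.10. With median-of-ratios scaling TGFB1 was at 0.01 in the first of these and the change of SMAD7 was 0.04. Leaving out single mice, the ranges that crossed 0 on day 14 were -0.31 to 0.32 for MSTN and -0.10 to 0.09 for TGFB1 between the control groups. On day 40 they were -0.29 to 0.08 for MSTN against unimmunized mice, and -0.28 to 0.03 for MSTN, -0.05 to 0.10 for FSTL1 and -0.15 to 0.06 for TGFB1 against OVA-immunized mice. Between the control groups of day 40 they were -0.13 to 0.24 for MSTN, -0.14 to 0.04 for FST and -0.21 to 0.03 for TGFB1. For the change between days they were -0.03 to 0.17 for TGFB1 against unimmunized mice and -0.19 to 0.00 for SMAD7 against OVA-immunized mice.

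No label ties the replicate numbers to a shared source, and they did not pair the mice throughout: same-numbered mice deviated with correlations from -0.73 to 0.70 on day 14 (7 of 15 over 0.1) and from -0.55 to 0.17 on day 40 (1 of 15). The mice numbered 1 of day 14 did deviate together (0.51, 0.61 and 0.70), and their libraries had long genes at -0.83, -0.68 and -0.32. With the replicate number as a block, the members called on day 14 were 3 higher and 2 lower relative to unimmunized mice and 3 and 1 relative to OVA-immunized mice, as without it. Reads limit what can be said of FSTL3 (7 to 34 per mouse) and INHBB (28 to 90).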
